A study of Homo sapiens with 6 samples.

Results

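The 10 genes described here make serine from a glycolytic intermediate, convert serine and glycine into each other, and carry the single carbon units that serine donates to folate. They were chosen by name, as PHGDH, PSAT1, PSPH, SHMT1, SHMT2, MTHFD1, MTHFD2, MTHFD1L, GLDC and ALDH1L2, and make up 10 of 17766 genes in the gene-named expression table. All 10 had a row there, and 9 passed a filter on low signal.

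RNA came from the human melanoma lines WM115, from a primary skin tumour, and WM266-4, from a skin metastasis, both grown in DMEM with 10% fetal bovine serum plus additives labelled NaP and L-glu, antibiotics and non-essential amino acids. There were 3 biological repeats of both lines, 1 Affymetrix array each. The first repeat used the miRNeasy micro kit and Human Gene 1.0 ST arrays, while the later repeats, 2 and 3, used the GeneAll Hybrid-R miRNA kit and Human Gene 2.1 ST arrays, so that version, kit and repeat are confounded. Each condition is 1 cell line, so a difference between the lines is not a difference between primary tumours and metastases in general.

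Values are log2 signals as the authors deposited them. Levels are given as mean ± SD over 3 arrays, and differences are WM266-4 minus WM115 on the log2 scale. Each gene had been adjusted for array version before deposit. The SD and overlap of a line's 3 arrays therefore describe adjusted values, not measured spreads. A gene was tested where its mean over all arrays reached the 30th percentile of all genes, a log2 signal of 3.97. It was called at an adjusted p under 0.05 in a limma fit over all 12436 tested genes with line and array version as terms. A called gene is said to have risen or fallen in WM266-4 relative to WM115. Of the tested genes 26.9% were called, 13.6% higher and 13.3% lower, and the median difference was 0.01.

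Serine is made from the glycolytic intermediate 3-phosphoglycerate in a short chain of reactions by PHGDH, PSAT1 and PSPH. Serine hydroxymethyltransferases, SHMT1 in the cytosol and SHMT2 in mitochondria, split serine into glycine and a carbon unit on tetrahydrofolate. MTHFD enzymes then oxidise or reduce that unit along parallel mitochondrial and cytosolic routes, which feed purine, thymidylate and methionine synthesis. The glycine cleavage system, of which GLDC is the decarboxylase, takes a further carbon unit from glycine, and the pathway as a whole is known for its activity in dividing tumour cells, melanoma among them.

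Among the 9 tested members, 4 rose, none fell and 5 were not called, by limma with Benjamini-Hochberg adjustment over all tested genes. Of all tested genes, 13.6% rose and 13.3% fell. PSAT1 and SHMT1 showed the clearest increases, to 3.22-fold and 2.72-fold, and MTHFD2 and MTHFD1 rose by 0.71 and 0.48 log2. The median difference of the tested members was 0.47, against 0.01 for all tested genes. All 3 WM266-4 arrays lay above all 3 WM115 arrays for 6 tested members, as they did for 26.4% of tested genes; 51.7% of tested genes had lines that did not overlap in one direction or the other. The same 6 were higher in WM266-4 in every repeat, as were 30.1% of tested genes. The members were chosen with earlier results of these data known. These counts and the median therefore describe the members and are not a test of the set.

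**Figure D1:**
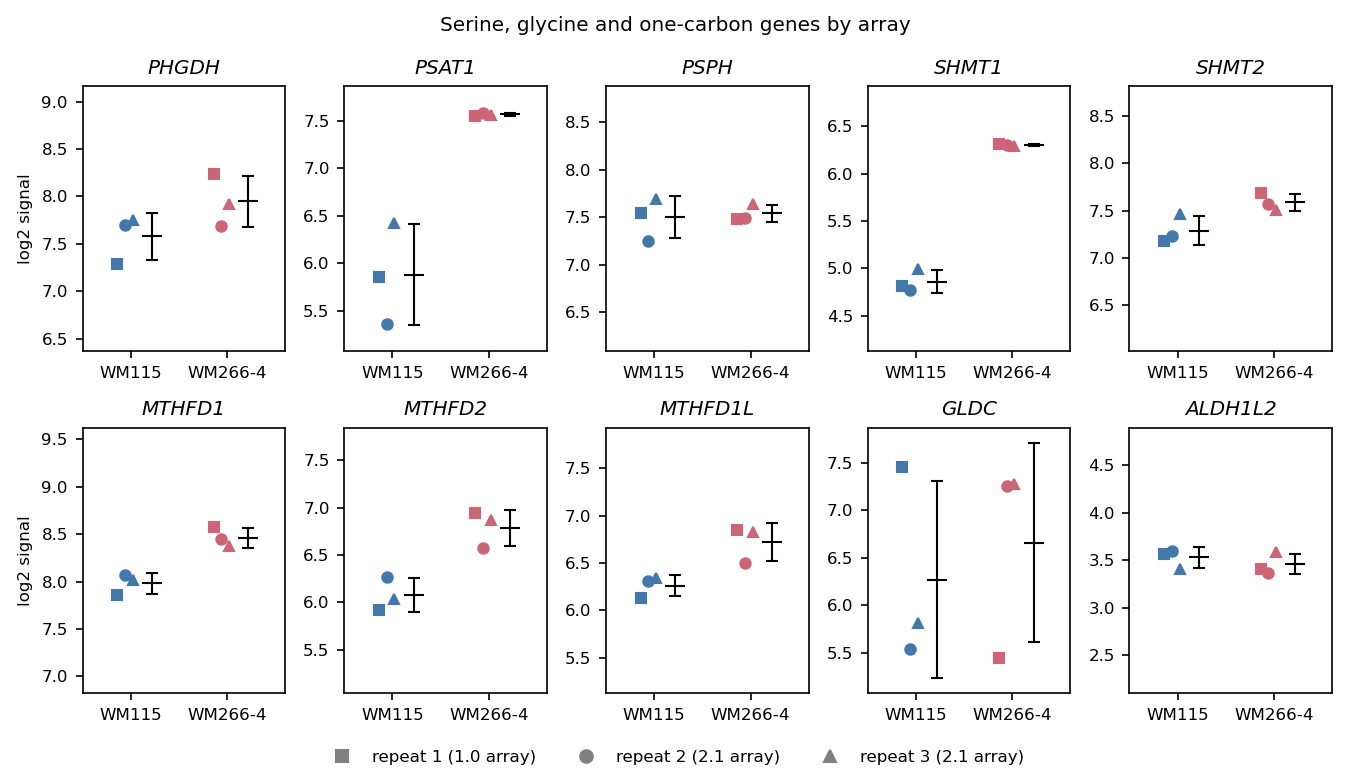
Log2 signal of each of the 10 genes on each array, with WM115 in blue and WM266-4 in red, symbols for the repeats, and the mean ± SD over 3 arrays as black bars; every panel spans the same number of log2 units. The 3 WM266-4 arrays lie close together and above all WM115 arrays for PSAT1 and SHMT1, while the first repeat of GLDC is placed opposite to repeats 2 and 3.

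To show the sequence upstream of the 4 called members, and of MTHFD1L, which was close to the threshold, their promoters are given from RefSeq (GRCh38.p14), from 250 bases before the annotated start to 50 after it, 5′ to 3′ on the gene's strand. The table of promoters held 7 of the 10 members, and of several MTHFD1L starts the first listed is shown. Capitals mark matches, on either strand, to an ATF4-C/EBP element (TGATGNAA), a MYC E-box (CACGTG), an E2F site (TTTCCCGC, TTTCGCGC, TTTGCCGC or TTTGGCGC) or a CCAAT box (CCAAT).
PSAT1 (chr9:78296875-78297174, plus strand): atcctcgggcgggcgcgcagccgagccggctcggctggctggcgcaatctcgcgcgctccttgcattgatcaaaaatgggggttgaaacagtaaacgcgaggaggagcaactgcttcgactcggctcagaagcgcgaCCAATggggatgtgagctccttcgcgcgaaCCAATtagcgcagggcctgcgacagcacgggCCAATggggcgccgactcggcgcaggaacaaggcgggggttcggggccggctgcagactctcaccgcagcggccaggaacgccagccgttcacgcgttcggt
SHMT1 (chr17:18363501-18363800, minus strand): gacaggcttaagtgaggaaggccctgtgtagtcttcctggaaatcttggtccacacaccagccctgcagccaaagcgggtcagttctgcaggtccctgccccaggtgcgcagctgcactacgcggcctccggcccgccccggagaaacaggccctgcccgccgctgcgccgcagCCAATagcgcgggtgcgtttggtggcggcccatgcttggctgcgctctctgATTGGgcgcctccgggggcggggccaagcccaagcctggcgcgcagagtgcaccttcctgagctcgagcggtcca
MTHFD1 (chr14:64388103-64388402, plus strand): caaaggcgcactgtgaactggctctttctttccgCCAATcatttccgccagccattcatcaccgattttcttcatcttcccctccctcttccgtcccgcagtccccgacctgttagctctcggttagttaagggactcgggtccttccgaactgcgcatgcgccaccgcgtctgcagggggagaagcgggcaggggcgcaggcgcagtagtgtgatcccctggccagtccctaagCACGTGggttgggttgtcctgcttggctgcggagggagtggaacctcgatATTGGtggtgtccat
MTHFD2 (chr2:74198365-74198664, plus strand): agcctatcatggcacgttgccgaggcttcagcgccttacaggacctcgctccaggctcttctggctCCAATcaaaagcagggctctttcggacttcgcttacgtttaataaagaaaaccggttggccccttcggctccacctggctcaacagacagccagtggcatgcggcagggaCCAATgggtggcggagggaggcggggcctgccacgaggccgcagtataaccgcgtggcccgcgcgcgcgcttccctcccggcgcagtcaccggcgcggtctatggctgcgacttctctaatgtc
MTHFD1L (chr6:150866236-150866535, plus strand): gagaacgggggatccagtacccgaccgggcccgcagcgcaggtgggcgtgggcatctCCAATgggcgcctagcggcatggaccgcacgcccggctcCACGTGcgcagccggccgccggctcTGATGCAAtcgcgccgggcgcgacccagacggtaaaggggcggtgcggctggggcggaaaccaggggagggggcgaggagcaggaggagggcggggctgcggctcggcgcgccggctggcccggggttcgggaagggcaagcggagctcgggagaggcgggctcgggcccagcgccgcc

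The CCAAT box was in a window of all 7 members with a promoter, and in 34.6% of the 35116 RefSeq promoters; this motif was added after the promoters had been read. PSAT1 held 3 matches, and SHMT1, MTHFD1 and MTHFD2 held 2 each. The E-box was in 2 members, MTHFD1 and MTHFD1L, against 7.26% of all promoters. The ATF4-C/EBP element was in MTHFD1L, against 3.62%, and the E2F site in 0 of the 7 members, against 3.31%. Among promoters of protein-coding genes the shares were 34.7% (CCAAT box), 8.34% (E-box), 2.69% (ATF4-C/EBP element) and 4.1% (E2F site). A member counted if any of its windows matched, whereas the shares are of single promoters, so members with several starts had more chances. None of the searched motifs overlapped another in the printed sequences. A match describes the letters of the window and does not show binding.

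In the serine synthesis branch, PSAT1 rose while the enzymes before and after it were not called. PSAT1, the aminotransferase of the second step, read 5.85, 5.36 and 6.42 in WM115 repeats 1 to 3 and 7.55, 7.59 and 7.56 in WM266-4. The WM266-4 arrays were nearly level and all above the WM115 arrays, which spread over more than 1 log2 unit. WM115 had a level of 5.88 ± 0.53 and WM266-4 one of 7.57 ± 0.02 (SD, n = 3). PSAT1 thus rose by 1.69, with an SE of 0.26, a 95% interval of 1.06 to 2.32 and an adjusted p of 0.0067 by limma. Only 155 of the 12436 tested genes, 1.25%, had as large an increase. The call held in all 14 alternatives, some of which are the same fit. The adjusted p was at most 0.037 by limma and the difference lay between 1.39 and 2.00.

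PHGDH, the dehydrogenase that opens the branch, read 7.29, 7.70 and 7.75 in WM115 and 8.24, 7.69 and 7.92 in WM266-4, so the lines overlapped. Its difference was 0.37 (interval -0.09 to 0.83, SE 0.19, adjusted p = 0.20 by limma). The first repeat gave 0.94, and repeats 2 and 3 gave -0.01 and 0.17. The difference between array versions was -0.86 (SE 0.23, adjusted p = 0.085 by limma), so neither the line difference nor its change between versions was called. Repeats 2 and 3 alone, which are all that is left without WM115 replicate 1 or WM266-4 replicate 1, gave 0.08 for PHGDH.

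PSPH, the phosphatase that releases serine, read 7.55, 7.25 and 7.69 in WM115 and 7.48, 7.49 and 7.64 in WM266-4. The lines overlapped throughout, with a difference of 0.04 (interval -0.30 to 0.39, SE 0.14, adjusted p = 0.86 by limma). PSPH has a near-identical pseudogene, PSPHP1, and how far its probes read both was not tested.

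In the cytosolic folate route, both members rose. SHMT1, the cytosolic serine hydroxymethyltransferase, read 4.82, 4.77 and 4.99 in WM115 and 6.31, 6.30 and 6.29 in WM266-4. Every WM266-4 array was more than 1 log2 unit above every WM115 array. WM115 had a level of 4.86 ± 0.12 and WM266-4 one of 6.30 ± 0.01 (SD, n = 3). SHMT1 thus rose by 1.44, with an SE of 0.11, an interval of 1.19 to 1.70 and an adjusted p of 0.00068 by limma. The repeats gave 1.49, 1.53 and 1.31. The call held in all 14 alternatives, some of which are the same fit, with an adjusted p of at most 0.0091 by limma.

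MTHFD1, which carries the cytosolic dehydrogenase, cyclohydrolase and formate-ligase activities in one protein, read 7.86, 8.07 and 8.02 in WM115 and 8.58, 8.45 and 8.37 in WM266-4. The lines did not overlap. MTHFD1 rose by 0.48, with an SE of 0.12, an interval of 0.20 to 0.76 and an adjusted p of 0.027 by limma, and the repeats gave 0.72, 0.38 and 0.35. MTHFD1 has a second, dimmer row in the table whose repeats gave 0.71, -0.84 and -0.61, with levels of 4.83 ± 0.48 in WM115 and 4.58 ± 0.45 in WM266-4, so the rows disagree in the later repeats. The mean of both rows gave 0.12 (adjusted p = 0.72 by limma). The call of the brighter row was lost on leaving out any 1 of the 6 arrays, at adjusted p values of 0.057 without WM115 replicate 1 or WM266-4 replicate 1, 0.062 and 0.075 without WM115 replicates 2 and 3, and 0.099 and 0.063 without WM266-4 replicates 2 and 3.

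In the mitochondrial folate route, MTHFD2 was the called member. MTHFD2, the mitochondrial dehydrogenase and cyclohydrolase, read 5.92, 6.27 and 6.04 in WM115 and 6.94, 6.57 and 6.87 in WM266-4, without overlap. WM115 had a level of 6.08 ± 0.18 and WM266-4 one of 6.79 ± 0.19 (SD, n = 3). MTHFD2 thus rose by 0.71, with an SE of 0.15, an interval of 0.35 to 1.08 and an adjusted p of 0.019 by limma. The repeats gave 1.02, 0.30 and 0.82. The call was lost without WM115 replicate 3 (adjusted p = 0.071) or WM266-4 replicate 3 (0.076).

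MTHFD1L, the mitochondrial formate-tetrahydrofolate ligase, read 6.13, 6.31 and 6.34 in WM115 and 6.85, 6.50 and 6.83 in WM266-4. The lines did not overlap, and the difference of 0.47 (SE 0.14, interval 0.13 to 0.80) was just past the threshold, at an adjusted p of 0.052 by limma. It was called with the filter at the 50th percentile (adjusted p = 0.046), with a robust prior (0.048) and without WM266-4 replicate 2 (0.049). With no array version term it was also called (adjusted p = 0.023 by limma). Values had been adjusted for version before deposit, which that fit ignores, so its p values come out too small.

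SHMT2, the mitochondrial serine hydroxymethyltransferase, read 7.18, 7.23 and 7.46 in WM115 and 7.69, 7.57 and 7.51 in WM266-4. The lines did not overlap, although WM115 repeat 3 lay only 0.05 below WM266-4 of the same repeat. The difference was 0.30 (SE 0.12, interval 0.01 to 0.59, adjusted p = 0.12 by limma). ALDH1L2, the mitochondrial 10-formyltetrahydrofolate dehydrogenase, was not tested because its signal, 3.53 ± 0.11 in WM115 and 3.46 ± 0.11 in WM266-4, lay below the filter. Without the filter its difference was -0.07 (interval -0.34 to 0.20, adjusted p = 0.73 by limma).

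**Figure D2:**
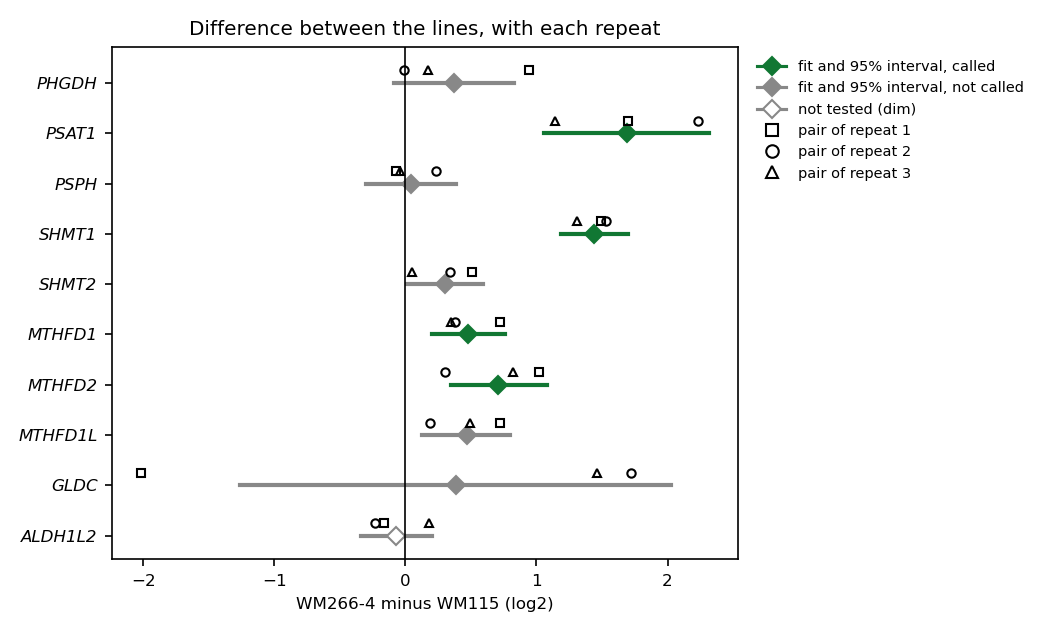
Difference between the lines (WM266-4 minus WM115, log2) for each of the 10 genes, with the limma estimate and its 95% interval as diamonds and bars and each repeat's own difference as open symbols above them. The called members PSAT1, SHMT1, MTHFD1 and MTHFD2 lie right of 0 in all 3 repeats, and GLDC lies at -2.02 in repeat 1 and at 1.72 and 1.46 in repeats 2 and 3.

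GLDC, the glycine decarboxylase, gave opposite differences in the first and the later repeats. It read 7.46, 5.54 and 5.81 in WM115 and 5.44, 7.26 and 7.28 in WM266-4. WM115 was thus the higher line on the 1.0 arrays, with a difference of -2.02, and WM266-4 on the 2.1 arrays, with 1.72 and 1.46. Over all arrays the difference was 0.39 (SE 0.68, interval -1.26 to 2.03, adjusted p = 0.71 by limma), an average of opposite values. On the 2.1 arrays alone, which is also what remains without WM115 replicate 1 or WM266-4 replicate 1, the difference was 1.59 (adjusted p = 0.00013 by limma).

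The test of the difference between array versions gave 3.61 for GLDC (SE 0.24, adjusted p = 0.00035 by limma), and 5.48% of tested genes passed that test. GLDC was the only 1 of the 9 tested members to pass it, and the other 8 had adjusted p values from 0.085 for PHGDH to 0.99 for PSAT1. With only 1 array of each line in the first repeat, the error of this test comes from repeats 2 and 3 alone. Its p value therefore leaves out any spread between 1.0 arrays or between cultures of the first repeat, here and for the other genes given with this test. Of 12436 tested genes 11, or 0.0885%, were at or below -1 in the first repeat and at or above 1 in both later repeats, and 2 (0.0161%) showed the opposite pattern. In the deposited table each gene's mean over the 1.0 arrays nearly equals its mean over the 2.1 arrays, within 0.032 for every member. For every gene, GLDC included, a first-repeat signal of one line is therefore not comparable with that line's later signals. Which line's GLDC signal differed between the first and later repeats cannot be told. Array version, kit and culture repeat cannot be told apart here.

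**Figure D3:**
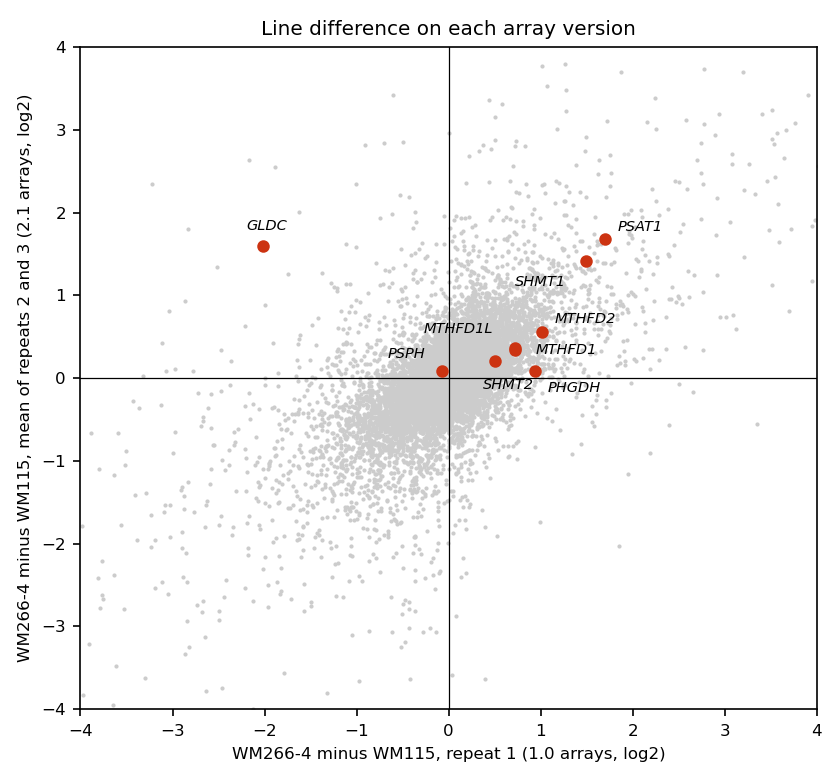
Difference between the lines in repeat 1 on 1.0 arrays (x axis, log2) against the mean of repeats 2 and 3 on 2.1 arrays (y axis, log2), with tested genes in grey and the 9 tested members in red; 92 genes lie outside the axes. GLDC sits in the upper left, at -2.02 and 1.59, and PSAT1 (1.70 and 1.68) and SHMT1 (1.49 and 1.42) have nearly the same value on both axes.

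Outside the 10 members, 11 metabolic lists around the pathway held 71 tested genes, of which 18 rose, 7 fell and 46 were not called. Their median difference was 0.13. The called genes in all pathway lists, members included, numbered 49 with all arrays. They numbered 23 and 31 with replicates 2 and 3 of WM115 omitted in turn, and 23 and 21 with those of WM266-4 omitted. The share that rose, 18 of 71, is to be read beside the 13.6% of all tested genes that rose, and the lists were put together with earlier results of these data known.

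Folate enzymes outside the members moved both ways. In the cytosolic list, which had 6 tested genes with the members counted, 3 rose and none fell, beside 13.6% and 13.3% of all tested genes. Besides SHMT1 and MTHFD1, the called gene was TYMS, which makes thymidylate and is a main user of folate-bound carbon; it rose by 0.80 (SE 0.15, adjusted p = 0.014 by limma), from 8.53 ± 0.21 to 9.33 ± 0.18 (SD, n = 3). Its call was lost with WM266-4 replicate 2 or 3 or else WM115 replicate 2 omitted (adjusted p up to 0.067), where 1 gene of the list was called. In the mitochondrial list of 6 tested genes, 1 rose and 1 fell, against a background of 26.9% called. The gene that fell was MTHFD2L, the paralogue of MTHFD2, which read 4.63, 5.11 and 6.35 in WM115 and 4.19, 3.18 and 2.87 in WM266-4. WM266-4 was below WM115 on every array, with -0.43, -1.93 and -3.48 in the 3 repeats, and the difference was -1.95 (SE 0.52, adjusted p = 0.038 by limma). The WM266-4 mean of 3.41 lay below the filter level, so MTHFD2L was tested only through its WM115 signal, and the size of its difference is uncertain. The MTHFD2L call was lost whenever a 2.1 array of either line (replicate 2 or 3) was omitted (adjusted p up to 0.13) and with a robust prior. Of 5 tested genes of folate uptake and retention, none was called in the fit of all arrays, including the folate carrier SLC19A1, at 0.01 (SE 0.09). On the 2.1 arrays alone, as without WM115 replicate 1 or WM266-4 replicate 1, 1 of the 5 was called.

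In the glycine cleavage list of 6 tested genes, 1 rose, beside 13.6% of all tested genes. DLD, the dihydrolipoamide dehydrogenase that this system shares with other mitochondrial complexes, rose by 0.48 (SE 0.11, adjusted p = 0.021 by limma). Its call was lost with WM266-4 replicate 2 or else WM115 replicate 2 or 3 omitted (adjusted p up to 0.099), where no gene of the list was called, and without WM115 replicate 1 or WM266-4 replicate 1, 2 genes were called, GLDC among them. AMT, the aminomethyltransferase of the system, had a difference of -0.05 (SE 0.11). GCSH, its lipoyl carrier protein, lay below the filter, at 3.67 ± 0.12 in WM115 and 3.81 ± 0.18 in WM266-4.

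Transporters of serine and glycine included 2 genes that rose and 3 that fell among 10 tested. Of all tested genes, 13.6% rose and 13.3% fell. SFXN2, a mitochondrial sideroflexin, read 4.32, 4.52 and 4.47 in WM115 and 6, 5.87 and 5.89 in WM266-4, and rose by 1.48 (SE 0.11, adjusted p = 0.00068 by limma). Its paralogue SFXN1, known as a mitochondrial serine carrier, fell by 0.60 (SE 0.10, adjusted p = 0.0074 by limma). Both sideroflexins kept their call on leaving out each array in turn. SLC1A4, a neutral amino acid exchanger that carries serine, rose by 0.88 (SE 0.25), and SLC38A1, a sodium-coupled importer of small neutral amino acids, fell by 1.47 (SE 0.34). SLC1A4 differed by 0.07 in the first repeat and by 1.38 and 1.20 later, and SLC38A1 by -0.37 and then -1.70 and -2.34; both passed the test between array versions (adjusted p = 0.023 and 0.016 by limma). The calls of SLC1A4 (adjusted p up to 0.15) and SLC38A1 (up to 0.093) were lost whenever a 2.1 array of either line (replicate 2 or 3) was omitted, where 3 genes of the list were called without WM115 replicate 2 or 3, and 2 without WM266-4 replicate 2 or 3. A robust prior, or testing dim genes too, also ended the SLC1A4 call.

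Purine synthesis uses folate-bound carbon. Of 13 tested purine genes, 7 rose, none fell and the median difference was 0.33, beside 13.6% of all tested genes that rose and a median of 0.01. IMPDH2, which commits inosine monophosphate to guanine nucleotides, rose by 0.84 (SE 0.12, adjusted p = 0.0048 by limma), and IMPDH1, its paralogue, by 0.69 (SE 0.15). GART, which takes a formyl group from folate, was chosen for mention once its values were known and differed by 0.55, 0.56 and 0.56 in the repeats. The IMPDH2 and GART calls held on leaving out each array in turn, and that of IMPDH1 was lost whenever a 2.1 array of either line (replicate 2 or 3) was omitted (adjusted p up to 0.079). With WM266-4 replicate 2 or else WM115 replicate 2 or 3 omitted, 3 purine genes were called, and without WM266-4 replicate 3, 2.

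In the methionine cycle 3 of 8 tested genes rose and 1 fell, beside 13.6% and 13.3% of all tested genes. AHCY, which clears S-adenosylhomocysteine, rose by 0.69 (SE 0.11), its relative AHCYL2 by 0.63 (SE 0.10), and MAT2B, the regulatory subunit of methionine adenosyltransferase, fell by 0.60 (SE 0.12). The MAT2B call was lost without WM266-4 replicate 2 or 3 (adjusted p up to 0.072), where 2 genes of the list were called. In transsulfuration and glutathione synthesis 1 of 8 rose and 1 fell, near the same 13.6% and 13.3%. SLC7A11, the cystine importer that supplies glutathione synthesis, fell by 1.08 (SE 0.13, adjusted p = 0.0033 by limma), with -0.81, -1.39 and -1.04 in the repeats. GSS, glutathione synthetase, rose by 0.42 (SE 0.11), a call lost whenever a 2.1 array of either line (replicate 2 or 3) was omitted (adjusted p up to 0.13), which left 1 called gene in the list.

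Among 8 tested genes of other uses of serine and glycine, 3 rose and 1 fell, beside 13.6% and 13.3% of all tested genes. Subunits of serine palmitoyltransferase, which joins serine to a fatty acid to start sphingolipids, differed in both directions. SPTLC2 rose by 0.92 (SE 0.15, adjusted p = 0.0081 by limma) and SPTLC1 fell by 0.80 (SE 0.11, adjusted p = 0.0053 by limma), and both calls held on leaving out each array in turn. SPTLC3, a further subunit, lay below the filter on average and was not tested, at 4.50 ± 0.49 in WM115 and 2.97 ± 0.50 in WM266-4. SRR, which makes D-serine, rose by 0.50 (SE 0.10), a call lost with WM266-4 replicate 2 or 3 or else WM115 replicate 2 omitted (adjusted p up to 0.073), where 2 genes of the list were called. Of 7 tested glycolytic genes around 3-phosphoglycerate, the substrate of PHGDH, none was called in the fit of all arrays. With the filter at the 50th percentile, with a robust prior or on the 2.1 arrays alone, 1 was called. The 2.1 arrays alone are also what remains without WM115 replicate 1 or WM266-4 replicate 1. With no array version term 2 were called, in a fit whose p values come out too small.

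ATF4 is a transcription factor known to raise serine synthesis and mitochondrial folate genes when amino acids are short. Of 24 tested genes listed for its programme outside the members, ATF4 itself included, 5 rose, 3 fell and 16 were not called. Of all tested genes, 13.6% rose and 13.3% fell. The median difference of the 24 was 0.01, as for all tested genes. NUPR1, a stress-induced nuclear protein, rose by 2.29 (SE 0.38, adjusted p = 0.0080 by limma), with 3.59 in the first repeat and 1.67 and 1.61 later. NUPR1 also passed the test between array versions (adjusted p = 0.002 by limma). ALDH18A1, the first enzyme of proline synthesis, rose by 0.97 (SE 0.15). DDIT3, a stress transcription factor, fell by 0.80 (SE 0.12), and SESN2, an inhibitor of mTORC1, fell by 0.77 (SE 0.22). ATF4 and ASNS were named after their values were seen. ATF4 rose by 0.34 (SE 0.09, adjusted p = 0.042 by limma), a call lost on leaving out any 1 of the 6 arrays (adjusted p up to 0.16). ASNS, asparagine synthetase, had a difference of -0.17 (SE 0.10, adjusted p = 0.24 by limma). The SESN2 call was lost with WM266-4 replicate 2 or 3 or else WM115 replicate 2 omitted (adjusted p up to 0.15) and without the filter on dim genes, while those of NUPR1, ALDH18A1 and DDIT3 held on leaving out each array in turn. With WM266-4 replicate 2 or 3 or else WM115 replicate 2 omitted, 3 genes of the list were called.

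**Figure D4:**
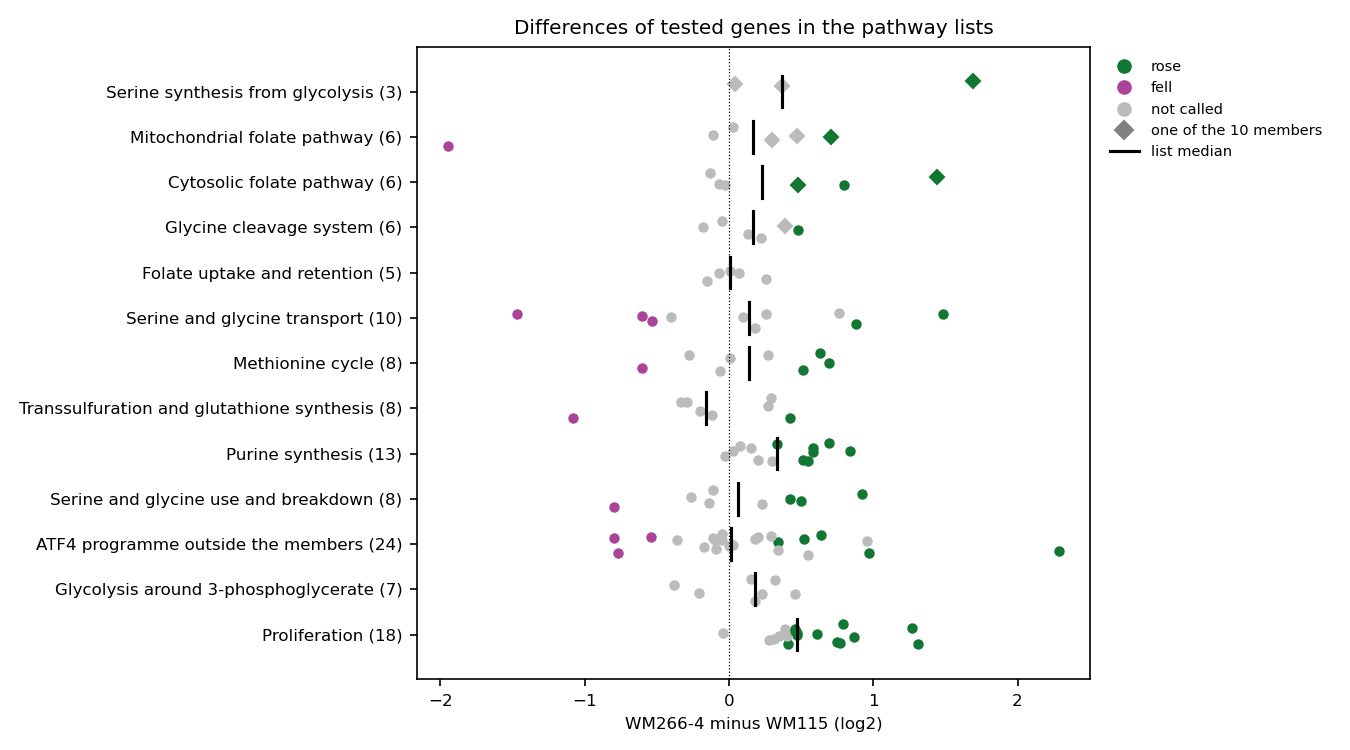
Differences between the lines (WM266-4 minus WM115, log2) of the tested genes in each of the 13 pathway lists, with the number tested in brackets, green for genes that rose, purple for genes that fell, grey for genes not called, diamonds for the 9 tested members and a black bar at each list's median. In purine synthesis (median 0.33) and proliferation (median 0.47) called genes lie only to the right of 0, and in serine and glycine transport they lie on both sides.

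Many genes of proliferation rose in WM266-4. Of 18 tested, 12 rose and none fell, beside 13.6% of all tested genes that rose. The median difference of the 18 was 0.47, against 0.01 for all tested genes. Summed linear signal of the 18 ran from 4250 to 4590 in WM115 and from 6180 to 6690 in WM266-4. MKI67, which marks dividing cells, rose by 1.31 (SE 0.15). CDK1, a kinase that drives mitosis, rose by 1.27 (SE 0.12). Without WM115 replicate 2, 5 proliferation genes were called, and without WM266-4 replicate 2 or 3, 6. The part of proliferation in the differences of PSAT1, SHMT1, MTHFD1 and MTHFD2 was not tested. In RNA of whole cultures, more cells expressing a gene and more RNA per cell cannot be told apart.

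Melanocytic markers other than SOX10 and S100B were also higher in WM266-4. The summed linear signal of all 8 listed markers ran from 919 to 1510 in WM115 and from 3000 to 4830 in WM266-4. S100B, at 9.58 ± 0.58 in WM115 and 9.72 ± 0.58 in WM266-4, differed by 0.15 (SE 0.39, adjusted p = 0.82 by limma). Its repeats gave -1.17, 0.93 and 0.68. The difference of SOX10 was 0.19 (SE 0.16, adjusted p = 0.42 by limma). SOX10, a factor of the melanocyte lineage, was present in both lines, at 7.90 ± 0.24 and 8.09 ± 0.14, whereas the pigment genes TYR, PMEL, MLANA and DCT had WM115 means of 3.17, 3.62, 3.60 and 2.79, below the filter level of 3.97, and WM266-4 means of 10.08, 8.96, 7.79 and 9.21. These pigment genes, named after their values were seen, and TYRP1 (3.09 and 5.12) passed the filter only through WM266-4, so no count of called markers is given for the list. No marker with a row is at 0 on arrays. The filter was passed by 7 of 9 fibroblast, 2 of 7 leukocyte and 1 of 6 keratinocyte markers, and by 1 of the 4 endothelial markers with a row. The fibroblast markers COL3A1 and PDGFRB and the keratinocyte marker DSP had WM266-4 means of 3.81, 3.93 and 3.8, below the filter level. They passed the filter only through WM115, so no count of called markers is given for their lists. Of 2 tested leukocyte markers 1 fell, and the 1 tested endothelial marker fell, beside 13.3% of all tested genes that fell. Summed signals of these marker lists ran from 391 to 454 in WM115 and 625 to 1350 in WM266-4 for fibroblasts. For leukocytes they ran from 627 to 1250 and 263 to 508. They ran from 83.9 to 126 and 59.5 to 75.6 for keratinocytes, and from 104 to 154 and 52.2 to 62.5 for endothelial cells. The fibroblast marker COL1A2 had means of 4.68 in WM115 and 9.16 in WM266-4, while COL3A1, PDGFRA and PDGFRB were lower in WM266-4. The leukocyte sum was mostly CD68, with means of 9.81 and 8.05, while PTPRC read 2.30 and 2.32. Neither sum therefore speaks for its whole list. The part of these marker lists in the results was not tested.

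PSAT1 and GLDC both lie on chromosome 9 and SHMT2 and ALDH1L2 on chromosome 12, and the other members each on a chromosome of their own. Gene order in RefSeq was used to set each member beside the tested genes among the 20 protein-coding genes on either side. The 23 tested neighbours of PSAT1 had a median difference of -0.17, 8 of them fell and 2 rose, and their differences ran from -1.85 to 0.73, against 1.69 for PSAT1. The 27 tested neighbours of SHMT1 ran from -0.82 to 0.66, with a median of 0.08, against 1.44 for SHMT1. MTHFD2 had 35 tested neighbours with a median of 0.12, of which 8 rose, none fell and 1 had an increase at least as large. MTHFD1 had 26, with a median of -0.06 and 3 with at least as large an increase. GLDC had 24, with a median of 0.04. These are descriptions of map position and were not tested.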

How the data were processed

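Log2 signals of 3 WM115 and 3 WM266-4 arrays came from the authors' deposited table with gene names. The tools named are RMA and Affymetrix Expression Console, without versions, per the submitters' processing notes. In the deposited log2 table the means of each gene over the 2 array versions nearly coincide (median absolute difference 0.0031, largest 0.11), so each gene had been adjusted for array version before deposit, by a method not given in the sources used. Value tables of each array version lack gene names here and were not used. Without detection calls the signal over background is unknown, and precision is limited by the number of arrays.

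The table had 18887 rows. Of rows repeating a symbol the brightest was kept (1121 dropped), leaving 17766 genes, and those with a mean below the 30th percentile (3.97) were not tested, leaving 12436. The model had terms for line and version and was fitted in R 4.3.3 by lmFit and eBayes of limma 3.58.1, with a constant prior (3 residual and 3.38 prior degrees of freedom) and Benjamini-Hochberg adjustment over all tested genes. Adjusted p values come from limma. A second fit added the line by version interaction (2 residual degrees of freedom). The first fit, without that interaction, was tested on simulated data, and the second was not. Array medians over tested genes ran from 6.12 to 6.18. No replicates were identical: within a line they differed with an SD over genes of 0.22 to 0.34. The labels call the repeats biological, without saying how cultures were separated.

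The members, 13 pathway lists and 5 marker lists were chosen with earlier results of these data known. Named genes are the 10 members and, per list, up to 2 called genes with the largest increase and 2 with the largest decrease, besides those said to be chosen after their values were seen and genes given as not called for context. Of the listed genes, MTHFS, EIF4EBP1 and PECAM1 had no matching row. Alternatives were no filter and a 50th-percentile filter, quantile normalization, no version term, the replicate number as a block, a robust prior with trend, the mean of a symbol's rows, the 2.1 arrays alone and leaving out each array. Promoters came from RefSeq (GRCh38.p14) and were searched with Python 3.11.15.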

Additional observations from a re-analysis of the deposited data

Results flagged for a closer look

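GLDC was singled out because its difference between the lines changed with the repeat. WM266-4 minus WM115 was -2.02 in the first repeat, on 1.0 arrays, and 1.72 and 1.46 in repeats 2 and 3, on 2.1 arrays. The later difference minus the first was 3.61 (SE 0.24, adjusted p = 0.00035 by limma). The SE and p leave out any spread between 1.0 arrays, since the first repeat held 1 array per line. Array version, RNA kit and culture repeat changed together, so they cannot be told apart.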

How the results depend on the processing

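PSAT1 and SHMT1 kept their direction and call in all 14 alternatives. MTHFD2 lost its call in 2, MTHFD1 in 9, and MTHFD1L gained one in 4. The 2.1 arrays alone and the fits without WM115 replicate 1 or WM266-4 replicate 1 are the same fit. The 14, and the 9 of MTHFD1, therefore count 1 fit more than once. Among the 4 of MTHFD1L is the fit with no version term, whose p values come out too small. The count of called members, 4, ran from 2 to 4 on leaving out 1 array (2 without WM115 replicate 3 or WM266-4 replicate 3), that of called genes in the pathway lists, 49, from 21 to 50, and that of all called genes, 3343, from 1400 to 3914. Each of these fits had 1 array fewer. Without either 1.0 array the version term takes up the other one, so only the 2.1 arrays are compared. Why dropping a 1.0 array raised the count of all called genes was not tested. PSPH, near 0 and at most 0.15 without WM115 replicate 3, turned to -0.10 without WM115 replicate 2, -0.02 without WM266-4 replicate 3 and -0.07 in the first repeat alone. GLDC was 1.59 and called on the 2.1 arrays alone, as without WM115 replicate 1 or WM266-4 replicate 1, and turned to -0.03 without WM115 replicate 2 and -2.02 in the first repeat alone. MTHFD1 turned to -0.25 in its dimmer row (adjusted p = 0.60 by limma); why its rows differ was not tested. First-repeat values and the dimmer row were added after seeing the data.

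The replicate numbers could not be shown to pair the samples: deviations of same-numbered arrays from their line means correlated at -1, -0.26 and -0.40 over genes. The removal of the version effect fixes the first value and pushes the others below 0, so they say little about pairing. With the replicate block 2398 genes, 3 members and 33 pathway genes were called, and MTHFD1 had an adjusted p of 0.056.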

Other observations

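Of the 11 tested genes at or below -1 in the first repeat and at or above 1 in both later repeats, GLDC was the only enzyme of serine or glycine metabolism listed here. The others included NGFR, the low-affinity neurotrophin receptor, with differences of -2.17, 2.40 and 2.88, the water channel AQP1, with -4.81, 1.59 and 2.01, the phosphatase PTPRZ1, with -1.62, 2.13 and 1.89, and the VEGF receptor FLT1, with -2.83, 1.61 and 1.98. These genes were picked out after their values were seen.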
